A study of Mus musculus with 46 samples.

Results

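Transcripts of 9 secreted or secretion-linked factors of the liver were followed across the 46 livers of the series: the hepatokines Fgf21, Gdf15, Nrg4 and Lect2, the activin subunits Inhbe, Inhbc, Inhbb and Inhba, and the activin-binding protein follistatin (Fst). They were chosen by gene symbol, and all 9 were found among the 55416 genes of the 4 deposited count tables. Each of the 9 had reads in every library and passed the filter on low counts in every comparison.

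Hepatokines are proteins that the liver releases into the blood and that act on other organs. FGF21 is made by hepatocytes under fasting, sugar load and cellular stress, and acts through an FGF receptor joined to beta-klotho. GDF15 is a stress-induced member of the TGF-beta family that signals through GFRAL in the hindbrain. NRG4, best known from brown fat, is an EGF-like ligand of ErbB receptors, and LECT2 is a plasma protein made mainly by hepatocytes. Inhibin beta subunits pair to form activins, which bind activin receptors and signal through SMAD proteins. The subunits encoded by Inhbe and Inhbc are typical of hepatocytes, whereas those of Inhba and Inhbb occur in many tissues, and follistatin binds activins and blocks their access to the receptor.

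All livers came from male mice, whose ages the labels do not give. In 8 groups the mice were of the line Plvaptm1.1Salm-Tg(Lrat-cre)1Rshw on the strain C57BL/6JBomTac, as knockouts or littermate controls. Lrat-Cre is active in hepatic stellate cells, so the deletion of Plvap, a protein of the diaphragms of caveolae and fenestrae, is aimed at that cell type and not at hepatocytes. The alleles that the littermates carried are not given in the labels. On chow, 6 controls and 5 knockouts were fasted for 12 h, and 4 of each were fasted for 10 h and then refed for 2 h. The western diet, given for 6 weeks, had 5 controls and 4 knockouts, and the high-fat diet, also for 6 weeks, had 5 of each, all killed after a 12 h fast. The last pair of groups held 4 C57BL/6N wild types and 4 whole-body Cav1 knockouts of STOCK Cav1tm1Mls/J, both on chow and fasted for 6 h. Caveolin-1, the product of Cav1, forms the coat of caveolae. In that pair the mouse stock differs together with the genotype, and the contributions of the stock and the knockout cannot be told apart.

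Library totals ran from 6656342 to 23311539 counts. Plvap fell to between 17.8% and 25.3% of the control mean in the 4 stellate knockout experiments, with no overlap between groups (exact two-sided permutation tests, p from 0.00433 to 0.0286, the last being the smallest that 4 against 4 allows). Cav1 was at 16.5% of the wild-type mean in its knockout (exact permutation p = 0.0286). The defining hepatocyte markers were abundant in every library. Their summed level did not overlap between knockout and control in any of the 5 experiments, for example 69327 to 86008 CPM in fasted chow controls against 107161 to 139652 in the knockouts. Albumin alone was at 31861 ± 2767 CPM (SD, n = 6) against 62500 ± 8792 (n = 5), which makes up most of that difference. Of the 12 markers, 1 was called on fasted chow, 0 in refed and western livers, 1 on high-fat diet and 4 in Cav1 knockouts. In that order of experiments, 2.25%, 0.0227%, 0.0148%, 0.281% and 4.68% of all genes were called. List medians were 0.36, 0.18, 0.12, 0.45 and 0.36 on the log2 scale. The part of this shift in the results that follow was not tested. In bulk tissue, fewer cells of a type and less RNA per cell cannot be told apart.

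Levels are given as TMM-normalised counts scaled to library size (CPM), on a common scale of all 46 libraries, and per kilobase of summed exon length where genes are compared with each other. Lect2 was the most abundant of the 9 per length, at a mean of 92.1 CPM per kb over all libraries. The hepatocyte activin genes came next, Inhbc at 29.7 CPM per kb and Inhbe at 14.6. Fgf21 stood at 6.72 CPM per kb and Gdf15 at 4.64, and the other 4 were lower, Inhba at 1.59, Nrg4 at 1.14, Fst at 0.938 and Inhbb at 0.892. Fgf21 varied most between groups, 18.7-fold from the lowest to the highest group mean, and Lect2 least, 1.91-fold. When the 10 groups were ordered by mean level for each gene, 2 of the 81 steps between neighbouring groups were larger than the larger SD of the pair. Ordering by mean itself makes such steps small, so this count does not measure whether groups differ. The 2 steps were those of Inhbc, between high-fat controls and the next group, and of Fst, between Cav1 knockouts and the next group.

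The proximal promoters are shown for 4 of the 9 genes, as the 250 bases before the RefSeq start (GRCm38.p6, given 5′ to 3′ on the gene's strand). RefSeq promoter entries matched 8 of the 9 members. Capitals mark matches on either strand to TGATGNAA (a composite site of ATF4 and C/EBP proteins), CACGTG (an E-box) and AGGTCA (the core of many nuclear receptor sites), and the forkhead core TGTTTAC had no match in these 4 windows. No searched motif overlapped another.
Fgf21, chr7:45615491-45615740, minus strand: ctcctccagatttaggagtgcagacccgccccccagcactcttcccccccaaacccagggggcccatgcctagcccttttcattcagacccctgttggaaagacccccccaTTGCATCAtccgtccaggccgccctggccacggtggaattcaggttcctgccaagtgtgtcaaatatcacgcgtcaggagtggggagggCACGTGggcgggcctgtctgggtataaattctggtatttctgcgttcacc
Inhbe, chr10:127351849-127352098, minus strand: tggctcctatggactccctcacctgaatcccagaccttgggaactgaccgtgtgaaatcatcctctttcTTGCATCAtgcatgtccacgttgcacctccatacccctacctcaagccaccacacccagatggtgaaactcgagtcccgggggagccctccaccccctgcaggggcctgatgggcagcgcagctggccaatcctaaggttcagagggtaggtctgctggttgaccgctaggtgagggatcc
Inhbc, chr10:127370549-127370798, minus strand: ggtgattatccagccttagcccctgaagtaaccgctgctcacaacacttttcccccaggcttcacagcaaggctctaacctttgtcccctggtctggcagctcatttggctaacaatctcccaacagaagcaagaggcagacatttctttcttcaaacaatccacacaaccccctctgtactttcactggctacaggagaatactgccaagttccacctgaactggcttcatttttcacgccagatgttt
Nrg4, chr9:55283626-55283875, minus strand: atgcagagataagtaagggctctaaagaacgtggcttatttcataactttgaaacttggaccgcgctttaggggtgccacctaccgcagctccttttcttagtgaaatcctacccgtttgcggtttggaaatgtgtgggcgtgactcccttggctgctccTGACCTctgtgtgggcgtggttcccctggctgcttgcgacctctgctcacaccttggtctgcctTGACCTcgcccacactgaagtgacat
The composite site was found 132 to 139 bases before the start of Fgf21 and 174 to 181 bases before that of Inhbe, in the same 8 letters (TTGCATCA). Among all 32851 RefSeq windows of this length, 3.45% hold it. The E-box of Fgf21 lay 45 to 50 bases before the start, and 6.02% of windows hold an E-box. The window of Nrg4 held AGGTCA at 2 places on the reverse strand, 21 to 26 and 85 to 90 bases before the start, and 14.0% of windows hold at least 1 match. The Inhbc window held none of the 4 motifs, and 3.17% of windows hold the forkhead core. Among the windows not shown, that of the first start of Gdf15 held AGGTCA 50 to 55 bases before it. The window of its second start (2) held an E-box 78 to 83 bases before it. All these matches describe letters and not bound sites.

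Nrg4 (chr9:55127506-55234128, minus strand, on GRCm39 as in the deposited tables) was the single member called in a stellate Plvap knockout. On the high-fat diet the 5 controls had 4.41, 4.59, 5.23, 5.89 and 6.02 CPM, and the 5 knockouts 7.26, 8.75, 9.71, 13.1 and 13.9. All 5 knockouts lay above all 5 controls, and the share of all genes without overlap was not measured. The mean rose from 5.23 ± 0.732 to 10.5 ± 2.85 CPM (SD, n = 5 each), a log2 fold change of 1.00 ± 0.20 (SE) with an adjusted p of 0.042 in edgeR's quasi-likelihood test. It was 1 of 9 members called there, against 0.281% of all genes tested. The call was fragile: it was kept in 7 of 19 fits that each left out 1 library of the diet table (high-fat control A, high-fat knockout A, western controls A, B and D, and western knockouts B and D), and lost in the other 12, with adjusted p up to 0.131. In the same livers the summed level of 10 lymphocyte markers did not overlap either, at 17.0 to 27.2 CPM in controls and 27.4 to 57.2 in knockouts, and 1 of 8 tested was called. The 6 neutrophil markers summed to 7.27 to 12.1 CPM in controls (median 10.6) and 5.99 to 121 in knockouts (median 10.8), so the median livers were close. List medians were 0.87 for lymphocyte and 1.86 for neutrophil markers on the log2 scale, beside 0.01 over all genes, and their part in the Nrg4 difference was not tested.

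In the other stellate knockout experiments Nrg4 had the same direction and was not called. On chow after the fast, controls ran from 2.97 to 6.85 CPM with a median of 4.52, and the 5 knockouts had 5.13, 7.57, 8.06, 10.4 and 15.2. All but the lowest knockout lay above every control, and the log2 fold change was 0.95 ± 0.28 (edgeR adjusted p = 0.0995). DESeq2 called it (adjusted p = 0.0193), and so did the fit without knockout C (adjusted p = 0.0289). Refed controls had 3.32, 4.28, 6.26 and 7.58 CPM, and refed knockouts 4.51, 5.20, 6.36 and 14.7, so that 1 knockout lay above the range of the controls. Western-diet controls had 4.20 to 8.57 CPM and knockouts 6.91 to 11.4. Averaged over the 4 experiments in a joint fit, Nrg4 rose by 0.73 ± 0.15 on the log2 scale (edgeR adjusted p = 0.00256), and this call was kept in all 44 alternatives, with adjusted p from 0.000207 to 0.00956. The average uses the same livers as the single experiments, and it called 1 of the 9 members against 5.58% of all genes. In Cav1 knockouts Nrg4 stood at 6.19 ± 1.08 CPM against 6.43 ± 2.00 in wild types (n = 4 each), with overlapping ranges.

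Of the 6075 exon bases of Nrg4, 368 are shared with Fbxo22 on the opposite strand. The counting strand is not given in the sources used here, so reads in that stretch cannot be told apart. Fbxo22, an F-box protein of ubiquitin ligases, had a group mean between 48.9 and 61.9 CPM. On the high-fat diet it was at 50.6 ± 2.00 CPM in controls and 48.9 ± 4.32 in knockouts.

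Gdf15 (chr8:71082043-71085106, minus strand) was higher in fasted chow knockouts in most livers without passing the test. Controls had 2.21 to 11.6 CPM with a median of 4.29, and the knockouts 7.90, 11.3, 12.2, 16.3 and 22.9. All 5 knockouts lay above 5 of the 6 controls, and the sixth, control F at 11.6 CPM, reached into their range. The log2 fold change was 1.43 ± 0.40 (edgeR adjusted p = 0.0971). Without control F it was 1.84, with an adjusted p of 0.0102, and DESeq2 gave an adjusted p of 0.0223 on all libraries. Immune markers were also higher in these knockouts: the median summed level went from 7.26 to 19.9 CPM for neutrophil markers (3.67 to 13.9 in controls and 8.05 to 53.1 in knockouts), from 28.8 to 43.3 CPM for lymphocyte markers and from 644 to 878 CPM for Kupffer cell markers. Of these lists 0 of 3, 1 of 7 and 0 of 10 tested genes were called, and their part in the Gdf15 and Nrg4 values was not tested. No member was called by edgeR in this experiment (0 of 9, against 2.25% of all genes tested), while 3 had an unadjusted p under 0.05 (17.6% of all genes did), DESeq2 called 2 members and 690 genes, and limma-voom called 0 members and 490 genes.

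In refed livers 3 of the 4 knockouts lay above all controls for Gdf15. Refed controls had 4.58, 6.09, 6.51 and 8.05 CPM and refed knockouts 5.91, 8.98, 10.3 and 15.2 (log2 fold change 0.68 ± 0.27, edgeR adjusted p = 0.596). On western diet the order was the other way, 12.6 ± 2.25 CPM in controls (n = 5) and 9.81 ± 4.46 in knockouts (n = 4). Of the 4 knockouts 3 lay below all controls and 1 above them, with medians of 12.4 CPM in controls and 8.21 in knockouts. The log2 fold change there was -0.36 ± 0.37 (edgeR adjusted p = 0.784). The difference of the knockout effect between western diet and chow was -1.79 ± 0.53 on the log2 scale, with an unadjusted p of 0.00202 and an adjusted p of 1 in edgeR. On the high-fat diet Gdf15 was at 6.56 ± 3.23 CPM in controls and 8.44 ± 4.62 in knockouts. The mean effect over the 4 experiments was 0.54 ± 0.19 (edgeR adjusted p = 0.0987), and without chow control F it was 0.64 (adjusted p = 0.0237).

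Fgf21 (chr7:45263310-45264914, minus strand) was not called in any knockout comparison, and its libraries spread widely within groups. On western diet 3 of the 5 controls were high, with 21.4, 21.9 and 22.4 CPM, and the other 2 had 5.88 and 6.72. The 4 knockouts had 1.84, 4.92, 9.17 and 9.21 CPM, so that 2 of them lay below all controls and 2 within their range. The log2 fold change was -1.34 ± 0.59 (edgeR adjusted p = 0.48). High-fat controls were split in the same manner, 3 livers at 14.6, 15.1 and 15.4 CPM and 2 at 3.11 and 6.18, and the knockouts had 3.02, 3.50, 3.77, 5.74 and 11.3. On chow after the fast the knockouts spanned 2.10 to 18.3 CPM, around the controls' range of 2.80 to 13.2. The mean effect over the 4 experiments was -0.77 ± 0.34 (edgeR adjusted p = 0.202).

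Lect2 (chr13:56690277-56696315, minus strand) was not called in any stellate knockout experiment. Its means were 62.4 ± 6.90 CPM (n = 6) in controls against 64.1 ± 8.57 (n = 5) in knockouts on fasted chow and 95.7 ± 7.92 against 97.7 ± 19.2 (n = 5 each) on the high-fat diet. In Cav1 knockouts a single liver, replicate B, stood at 187 CPM beside 88.9, 91.9 and 110, against 88.4 to 97.5 in wild types.

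**Figure D1:**
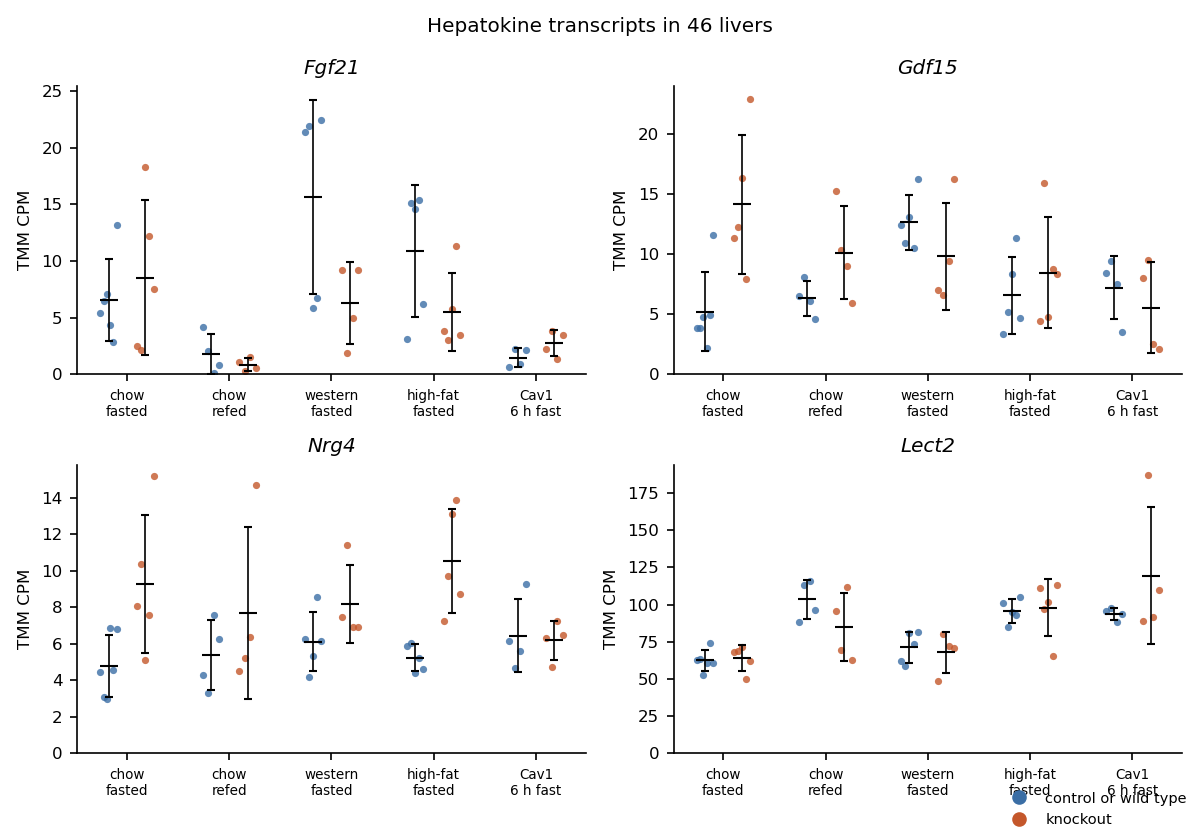
TMM-normalised CPM (linear axis) of Fgf21, Gdf15, Nrg4 and Lect2 in each of 46 livers, by experiment, with controls or wild types in blue and knockouts in orange. Horizontal bars and whiskers give the mean and SD. The 5 high-fat knockouts lie between 7.26 and 13.9 CPM of Nrg4, above the 5 controls.

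Inhbe (chr10:127184726-127190280) and Inhbc (chr10:127192191-127206300) lie next to each other on the minus strand, 1910 bases apart. Inhbe had a lower mean in the knockout in all 5 experiments and was called in none. On fasted chow the controls had 39.1 to 122 CPM with a median of 56.9, and the knockouts 25.7, 30.5, 35.6, 45.5 and 57. Here 3 knockouts lay below all controls, and the log2 fold change was -0.77 ± 0.34 (edgeR adjusted p = 0.278). Western-diet controls had 57, 61.4, 81.4, 93.9 and 187 CPM and the knockouts 51.2, 55.1, 55.8 and 73.9. High-fat controls had 50.5, 92.7, 114, 137 and 142 CPM and the knockouts 31.3, 60.4, 83.1, 84.3 and 96.9. Over the 4 stellate experiments the mean effect was -0.67 ± 0.23 (edgeR adjusted p = 0.0787), DESeq2 gave an adjusted p of 0.0368, and edgeR without refed knockout A gave -0.80 with an adjusted p of 0.0276.

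Inhbc had the same direction with smaller differences. Fasted chow controls ran from 43.0 to 56.9 CPM with a median of 47.3, and the knockouts had 20.6, 31.0, 37.7, 44.3 and 51.6, of which 3 lay below all controls. High-fat controls had 52.9 to 76.0 CPM and knockouts 39.2 to 70.0 (log2 fold change -0.33 ± 0.15, edgeR adjusted p = 0.315). The mean effect over the 4 experiments was -0.25 ± 0.09 (edgeR adjusted p = 0.0891), and it passed the test without chow knockout C (-0.28, adjusted p = 0.0316) or high-fat knockout E (-0.28, adjusted p = 0.0414). An antisense gene, Gm47200, shares 268 of the 1859 exon bases of Inhbc and had 49 counts over all libraries, against 39981 for Inhbc.

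Inhbb (chr1:119343195-119349978, minus strand), whose product forms activin B, differed most in the refed livers. The 4 controls had 11.5, 8.34, 5.34 and 3.00 CPM in replicates A to D, and the 4 knockouts 4.68, 2.07, 0.892 and 0.868. Control livers were higher at each letter, and 3 of the 4 knockouts lay below every control. The log2 fold change was -1.73 ± 0.59 (edgeR adjusted p = 0.577). With the replicate letter as a block in edgeR it was -1.84 with an adjusted p of 0.0181. The labels do not pair these livers, and that block rests on correlations seen in the same data. Inhbe in the refed livers also went with the letter, at 108, 109, 41.2 and 33.1 CPM in controls A to D and 88.8, 54.9, 32.8 and 11.3 in knockouts A to D. The summed level of 7 adipocyte markers was 13.6 to 48.2 CPM in refed controls and 12.1 to 26.0 in refed knockouts, highest in control A, and its part in the Inhbb difference was not tested. In refed livers 0 of 9 members were called without the block, against 0.0227% of all genes. The unadjusted p was under 0.05 for 3 members, beside 7.74% of all genes, and DESeq2 and limma-voom called 0. In the 3 other stellate experiments Inhbb ranges overlapped, for example 1.57 to 4.75 CPM in fasted chow controls and 1.66 to 5.98 in knockouts. The difference of the Inhbb effect between refed and fasted livers was -2.02 ± 0.69 (edgeR adjusted p = 0.482).

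Inhba (chr13:16186436-16206206, plus strand), the subunit of activin A, had the smallest p of the 9 members in the Cav1 knockout. Wild types had 5.67, 8.46, 8.46 and 9.53 CPM, and the knockouts 15, 18.6, 18.7 and 19.0. The groups did not overlap, and the mean rose from 8.03 ± 1.65 to 17.8 ± 1.89 CPM (n = 4 each), a log2 fold change of 1.17 ± 0.16 with an adjusted p of 0.00159 (edgeR). This call was kept in all 14 alternatives, with adjusted p up to 0.00812. In the stellate knockouts the ranges of Inhba overlapped in every experiment, with log2 fold changes from -0.47 ± 0.39 on high-fat diet to 0.66 ± 0.41 on western diet.

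Fst (chr13:114588826-114595487, minus strand) was the other member called in Cav1 knockouts. Wild types had 1.27, 1.32, 1.59 and 2.34 CPM and the knockouts 2.71, 3.18, 3.29 and 4.11, again without overlap. The log2 fold change was 1.04 ± 0.25 (edgeR adjusted p = 0.0403). The call was kept without wild type D and without knockout B and lost when any of the other 6 libraries was left out, with adjusted p from 0.0689 to 0.123. In this experiment 2 of 9 members were called, both higher, against 4.68% of all genes tested. An unadjusted p under 0.05 (edgeR) was found for 2 members and 18.6% of all genes. Over the 5 knockout comparisons, 3 of 45 pairs of a member and a comparison had no overlap. These were Nrg4 on high-fat diet, and Inhba and Fst here. The share of all genes without overlap was not measured in any comparison. The summed level of 10 markers of activated stellate cells or fibroblasts was 45.4 to 78.8 CPM in wild types (median 67.3). In Cav1 knockouts it was 49.1 to 133 CPM (median 72.2), and its part in the Inhba and Fst differences was not tested. The remaining 7 members had log2 fold changes between -0.52 and 0.90.

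Fst in the stellate knockouts changed direction between states and was not called. In fasted chow livers control D had 22.6 CPM, where the other controls had 2.87 to 8.45 and the knockouts 4.34 to 8.04. On high-fat diet the controls had 0.707, 0.794, 0.872, 1.05 and 4.74 CPM and the knockouts 1.19, 2.06, 3.98, 4.86 and 10.8, so that all knockouts exceeded 4 of the 5 controls (log2 fold change 1.47 ± 0.70, edgeR adjusted p = 0.366). Refed controls had 1.38, 1.74, 2.67 and 3.06 CPM and refed knockouts 2.94, 3.10, 3.57 and 7.71 (0.95 ± 0.36, adjusted p = 0.594, edgeR). The difference of the Fst effect between high-fat diet and chow was 2.19 ± 0.81 (edgeR adjusted p = 0.444), and that between refed and fasted livers 1.68 ± 0.82 (adjusted p = 0.592). On western diet, control A had 13.4 CPM and the other controls 1.43 to 3.45. That library also had the highest summed level of activated stellate or fibroblast markers, 178 CPM against 50.7 to 69.4 in the other western controls, and of adipocyte markers, 122 CPM against 20.4 to 57.9. Their part in the Fst value was not tested.

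**Figure D2:**
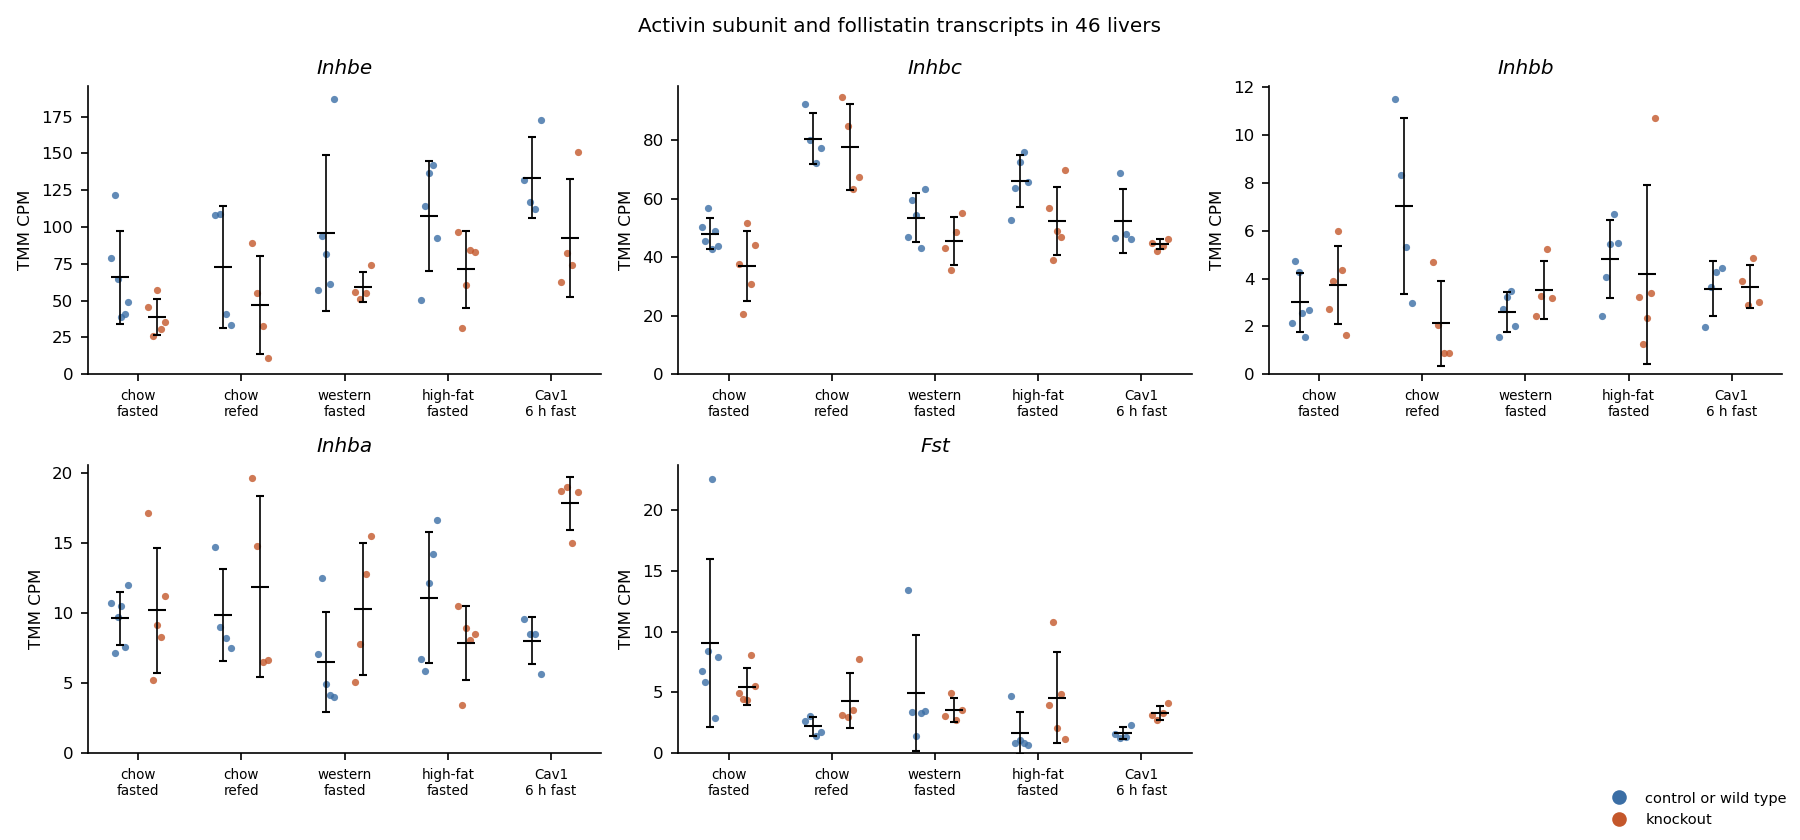
TMM-normalised CPM (linear axis) of the 4 activin subunit genes and Fst in each of 46 livers, by experiment, with controls or wild types in blue and knockouts in orange. Horizontal bars and whiskers give the mean and SD, and the lower whisker of Fst in high-fat controls ends at the axis. The 4 Cav1 knockouts lie between 15 and 19.0 CPM of Inhba, above the 4 wild types.

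No member was called on western diet (0 of 9, against 0.0148% of all genes), where 1 had an unadjusted p under 0.05, beside 9.79% of all genes, and DESeq2 and limma-voom called 0. No member was called by edgeR, DESeq2 or limma-voom in the 4 tests of a difference of the Plvap effect between states (western minus high-fat, refed minus fasted, western minus chow, high-fat minus chow), in which edgeR called 0% of all genes. At an unadjusted p under 0.05 there were 0, 2, 1 and 1 members in these tests, beside 11.4%, 8.37%, 3.07% and 8.18% of all genes.

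**Figure D3:**
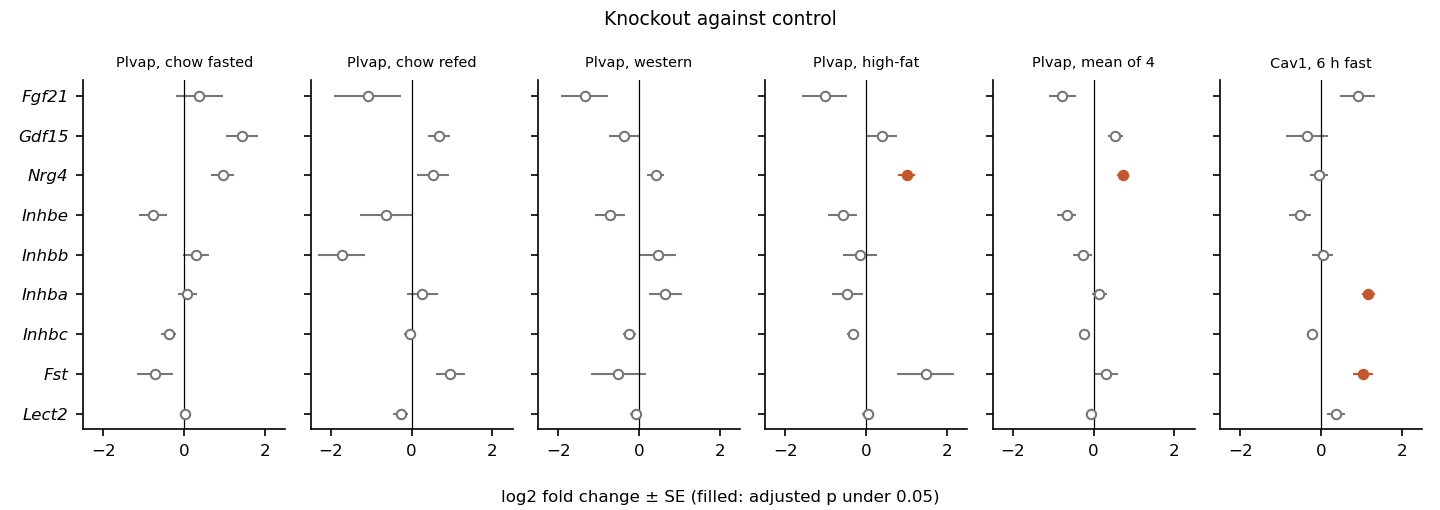
Log2 fold change of knockout against control with its SE (horizontal axis) for the 9 genes in the 4 stellate Plvap experiments, their mean and the Cav1 experiment, with filled orange points for genes with an adjusted p under 0.05 (edgeR). Nrg4 is filled on the high-fat diet and in the mean, and Inhba and Fst in the Cav1 experiment.

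Feeding was compared over the livers of the Plvap line on chow, refed against 12 h fasted, with both genotypes weighted equally. These groups come from different tables, so that feeding and table cannot be told apart. Of the 9 members 4 were called, against 60.6% of all genes tested, and this count is not a result about the members as a set. Fgf21 fell most. Fasted controls had 2.80 to 13.2 CPM (median 5.92) and fasted knockouts 2.10, 2.53, 7.50, 12.2 and 18.3, while refed controls had 0.115, 0.789, 2.03 and 4.15 and refed knockouts 0.251, 0.543, 1.07 and 1.49. The lowest refed control rests on 2 counts. All refed knockouts and all refed controls but the highest lay below the lowest fasted value of 2.10 CPM. The log2 fold change was -2.57 ± 0.53 (edgeR adjusted p = 0.000102), with -1.83 (adjusted p = 0.0286) in controls alone and -3.31 (adjusted p = 0.001) in knockouts alone.

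Inhbc and Lect2 rose with refeeding. Inhbc had 43.0 to 56.9 CPM in fasted controls and 20.6 to 51.6 in fasted knockouts, and 72.4, 77.4, 80.2 and 92.6 in refed controls and 63.5, 67.6, 84.8 and 94.9 in refed knockouts. Every refed liver lay above every fasted liver, and the log2 fold change was 0.92 ± 0.12 (edgeR adjusted p = 4.2e-08). Lect2 rose by 0.59 ± 0.11 on the log2 scale (edgeR adjusted p = 1.29e-05), from 62.4 ± 6.90 to 103 ± 13.1 CPM in controls (n = 6 and 4) and from 64.1 ± 8.57 to 85.0 ± 23.1 in knockouts (n = 5 and 4). Inhbe, the neighbour of Inhbc, did not pass the test, at 65.8 ± 31.3 CPM in fasted and 72.7 ± 41.2 in refed controls.

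Fst fell with refeeding by 1.15 on the log2 scale (SE 0.41, edgeR adjusted p = 0.0171). Refed controls had 1.38 to 3.06 CPM against 2.87 to 22.6 in fasted controls. The fall was -1.99 (adjusted p = 0.00636) in controls alone, and in knockouts alone the value was -0.31 (adjusted p = 0.693), from 5.46 ± 1.52 to 4.33 ± 2.27 CPM. The test of the difference between genotypes is the one given above, with an adjusted p of 0.592. Gdf15, Nrg4, Inhbe and Inhba had log2 fold changes between -0.08 and 0.23. The value for Inhbb, 0.24 ± 0.34, averages opposite signs. In controls alone Inhbb rose by 1.25 ± 0.45 (edgeR adjusted p = 0.0225), from 3.00 ± 1.24 to 7.06 ± 3.71 CPM, and in knockouts alone the value was -0.77 ± 0.51 (adjusted p = 0.222), from 3.72 ± 1.64 to 2.13 ± 1.79. The test of that difference is the one given for Inhbb above, with an adjusted p of 0.482. In controls alone 5 of 9 members were called, against 46.9% of all genes, and in knockouts alone 3 of 9, against 47.2%. Of 10 Kupffer cell markers 7 were lower in refed livers and 0 higher, where 60.6% of all genes were called, with a median summed level of 357 CPM in refed controls (lowest 280) against 644 (lowest 529) in fasted controls. Of 6 adipocyte markers tested, 4 were higher and 0 lower. Their part in the changes of the members was not tested.

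The diets were compared after a 12 h fast in the same manner. High-fat diet against chow, which again spans tables, called 4 of 9 members against 26.2% of all genes. Lect2 rose by 0.63 ± 0.10 on the log2 scale (edgeR adjusted p = 2.43e-05). Its 5 high-fat controls had 84.7, 92.6, 95.0, 101 and 105 CPM, all above the 52.8 to 74.1 of the chow controls, and the high-fat knockouts had 65.4, 97.0, 102, 111 and 113 against 50.0 to 71.6. Inhbc rose by 0.49 ± 0.12 (edgeR adjusted p = 0.00188), with 52.9 to 76.0 CPM in high-fat controls and 43.0 to 56.9 in chow controls. In controls alone the rise of Inhbc was 0.47 with an adjusted p of 0.0598. Inhbe rose by 0.80 ± 0.30 (edgeR adjusted p = 0.047), from 65.8 ± 31.3 to 107 ± 37.4 CPM in controls and from 38.9 ± 12.5 to 71.2 ± 25.9 in knockouts. That call lies at the threshold, since it was lost in 25 of 38 fits that each left out 1 library, with adjusted p up to 0.0849. It was kept without chow controls A or B, chow knockout C, refed controls C or D, refed knockouts A, C or D, western controls A, D or E, high-fat control A and high-fat knockout B. In controls alone (0.71, adjusted p = 0.307) and in knockouts alone (0.89, adjusted p = 0.169) it did not pass.

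Fst was lower on the high-fat diet by -1.35 ± 0.41 on the log2 scale (edgeR adjusted p = 0.0139). In controls the value was -2.45 (adjusted p = 0.00925) and in knockouts -0.26 (adjusted p = 0.803). The difference between these genotype values did not pass its own test, given above (edgeR adjusted p = 0.444). High-fat controls had 0.707 to 4.74 CPM and chow controls 2.87 to 22.6, while high-fat knockouts had 1.19 to 10.8 and chow knockouts 4.34 to 8.04. Fgf21, Gdf15, Nrg4, Inhbb and Inhba were not called, with log2 fold changes between -0.22 and 0.45.

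Western diet against chow called 0 of 9 members by edgeR, against 9.35% of all genes, with 0 at an unadjusted p under 0.05 (23.6% of all genes), 0 by DESeq2 and 1 by limma-voom. Fgf21 in controls was at 15.7 ± 8.55 CPM (n = 5) on western diet and 6.54 ± 3.60 (n = 6) on chow, and in knockouts at 6.28 ± 3.59 (n = 4) and 8.52 ± 6.84 (n = 5). Within the diet table, western against high-fat diet called 1 of 9 members against 13.2% of all genes. Lect2 was lower on western diet, at 71.1 ± 10.6 CPM in controls and 67.8 ± 13.7 in knockouts, than on high-fat diet, at 95.7 ± 7.92 and 97.7 ± 19.2. All 5 western controls, at 58.5 to 81.2 CPM, lay below all 5 high-fat controls. The log2 difference was -0.49 ± 0.11 (edgeR adjusted p = 0.00584), and in controls alone it was -0.44 with an adjusted p of 0.121. Gdf15 was 0.60 ± 0.26 higher on western diet without passing the test (edgeR adjusted p = 0.136), and it passed with limma-voom (0.78, adjusted p = 0.0369) and without high-fat knockout B (0.78, adjusted p = 0.0321). Inhbc differed by -0.27 ± 0.11 (edgeR adjusted p = 0.107).

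**Figure D4:**
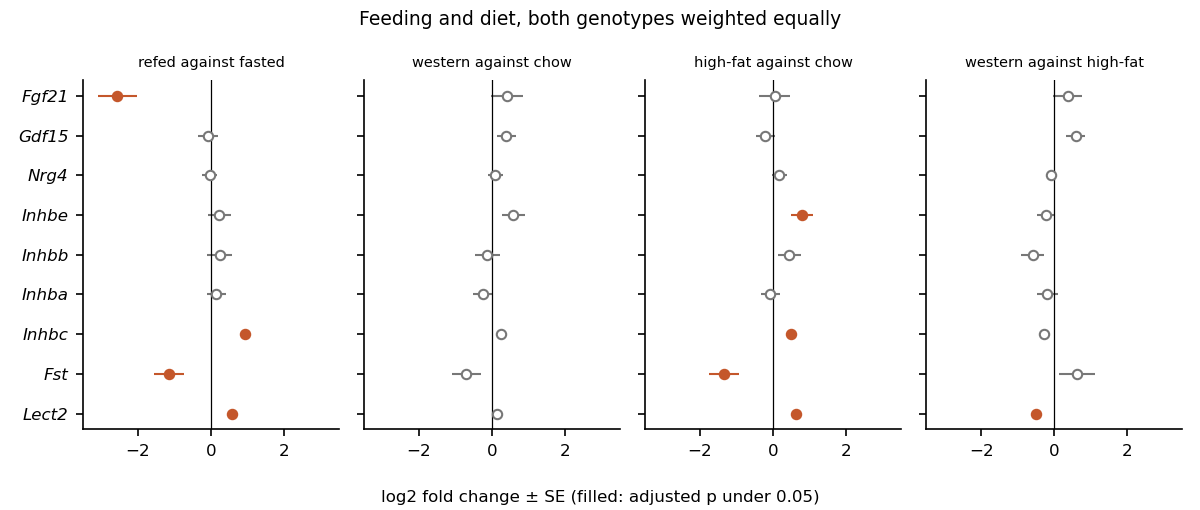
Log2 fold change with its SE (horizontal axis) of the 9 genes for refed against fasted livers and for the diet comparisons, both genotypes weighted equally, with filled orange points for an adjusted p under 0.05 (edgeR). Fgf21 lies at -2.57 for refeeding, and Lect2 is filled in 3 of the 4 panels.

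Genes around the members were counted in lists. Of 18 tested genes of activin signalling (receptors, SMAD proteins and processing enzymes), 0 were called in each of the 4 stellate experiments. Of all genes, 0.0148% to 2.25% were called in these experiments. The mean effect over the 4 experiments had 1 lower gene, where 5.58% of all genes were called. That gene was Smad7, an inhibitor of the pathway (-0.38 ± 0.12, edgeR adjusted p = 0.0498). In Cav1 knockouts 1 of 18 was called, beside 4.68% of all genes. It was Pcsk6, a convertase that cleaves TGF-beta family precursors, which fell by 1.05 on the log2 scale (SE 0.14, edgeR adjusted p = 0.00139). With refeeding, where 60.6% of all genes were called, 9 of 18 rose and 5 fell, among the rises Furin (0.73 ± 0.07), Pcsk6 (0.93 ± 0.11) and Pcsk5 (0.69 ± 0.11), which are convertases too, and Ski, a repressor of SMAD activity (0.76 ± 0.11). On high-fat diet 3 of the 18 were higher and 2 lower, where 26.2% of all genes were called, with Acvr1, a type I receptor, at 0.36 ± 0.11 and Skil, a relative of Ski, at -0.64 ± 0.13. The median of the list was 0.24 with refeeding and 0.02 with high-fat diet, beside 0.01 and 0.02 over all genes.

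Receptors of the hepatokines, 12 of 14 tested, had 0 called genes in each of the 5 knockout comparisons, where 0.0148% to 4.68% of all genes were called. With refeeding 5 rose and 2 fell, a share near the 60.6% of all genes. Fgfr4, the FGF receptor of hepatocytes, rose by 0.97 ± 0.11, and Met, the receptor of hepatocyte growth factor, fell by 0.85 (SE 0.11). Klb, the beta-klotho that FGF21 needs, was lower on high-fat diet than on chow (-0.33 ± 0.10, edgeR adjusted p = 0.0172), where 26.2% of all genes were called. Erbb4, a receptor of NRG4, was higher there (0.99 ± 0.33, edgeR adjusted p = 0.024), as were Fgfr3 (0.45 ± 0.12) and Tie1 (0.45 ± 0.13). Erbb4 was also higher on western diet than on chow (1.06 ± 0.34, edgeR adjusted p = 0.0406), where 9.35% of all genes were called. Fgfr1 was lower on western than on high-fat diet (-0.73 ± 0.16, edgeR adjusted p = 0.00741), where 13.2% of all genes were called. Gfral, the receptor of GDF15, had at most 4 counts in any library.

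Lists of transcription programmes that are known to include some members gave the following counts. Of 24 tested genes of the integrated stress response, 0 were called in each of the 5 knockout comparisons, beside 0.0148% to 4.68% of all genes. With refeeding 9 rose and 5 fell, again near the background of 60.6%, among them Ddit3 (1.91 ± 0.28) and Aars (1.19 ± 0.09). On high-fat diet 5 were higher and 5 lower, beside 26.2% of all genes, with Chac1 at 2.46 ± 0.41 and Cth at -1.46 ± 0.25. Of 26 fasting targets of PPARA, 7 fell and 1 rose in fasted chow knockouts, where 2.25% of all genes were called, among them Cidec, a lipid droplet protein (-1.42 ± 0.20, edgeR adjusted p = 0.00223), Cyp4a14 (-1.30 ± 0.22, adjusted p = 0.0102) and, upward, Abcd2 (1.38 ± 0.16, adjusted p = 0.000749). The median of that list was -0.48, beside -0.01 over all genes. In the refed, western, high-fat and Cav1 knockouts 0 of the 26 were called, beside 0.0227%, 0.0148%, 0.281% and 4.68% of all genes. The list medians there were -0.32, -0.34, -0.04 and -0.36. With refeeding 13 of the 26 fell and 4 rose, beside the 60.6% of all genes, with Angptl4, an inhibitor of lipoprotein lipase, at -2.58 ± 0.25 and Ppargc1a, a coactivator, at -1.88 ± 0.25. Of 17 ChREBP targets 10 rose and 3 fell in that comparison, Fasn, the fatty acid synthase, by 3.00 ± 0.23. Among p53 targets in fasted chow knockouts 2 of 11 rose, Bax (0.46 ± 0.09) and Phlda3 (0.87 ± 0.19), and 0 fell, beside 2.25% of all genes. Of 16 pericentral WNT targets 1 fell there, Oat, and with refeeding 6 rose and 3 fell, a share near the 60.6% of all genes.

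Among 41 other factors that the liver secretes, 37 were tested in fasted chow knockouts, where 5 rose and 1 fell beside 2.25% of all genes. Tff3, a trefoil peptide, rose by 3.27 ± 0.52 (edgeR adjusted p = 0.0192) and Hamp2, a hepcidin paralogue, by 2.27 ± 0.36 (adjusted p = 0.0114). In Cav1 knockouts, where 4.68% of all genes were called, 6 of 38 rose and 0 fell, including Tff3 (3.22 ± 0.56, adjusted p = 0.0103) and Enho, the adropin precursor (2.68 ± 0.39, adjusted p = 0.00726). On high-fat diet Igfbp2, an IGF-binding protein, was the single one called of 38 in the Plvap knockout (1.11 ± 0.18, edgeR adjusted p = 0.0125). There 0.281% of all genes were called.

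Likeness between genes was measured as the Pearson correlation of log2 CPM deviations from the group mean over the 46 libraries, among 12192 genes, as a description. Subtracting the group mean takes out differences in level between tables and feeding states. Variation between the livers of a group that touches many genes remains, and no test was made. Inhbe was most like G0s2, an inhibitor of adipose triglyceride lipase (r = 0.84), then Rtf2 and Angptl8 (0.75 each). Inhbc was most like Mgll, the monoacylglycerol lipase (0.80), Rae1 (0.78) and Ccdc97 (0.77), and Lect2 like Nit2 (0.78), 5033403H07Rik (0.77) and Glrx5 (0.75). Nrg4 was most like Cyp3a13 (0.72), Ctbs (0.69) and Ttc23 (0.66), and Fgf21 like 3930402G23Rik (0.68), Cidec (0.68) and Hilpda (0.67), the last 2 being lipid droplet proteins. For Inhbb these were Rundc1 (0.67), Pias4 (0.64) and Pcp4l1 (0.62), for Inhba Luc7l3 (0.68), Rbm15b (0.66) and Ippk (0.64), for Fst Mob3a (0.63), Il1rn (0.61) and Kctd12 (0.60), and for Gdf15 Itpkc (0.59), Gm21887 (0.58) and Nfxl1 (0.53). Between members, Inhbe went with Inhbb (0.58) and Inhbc (0.57), and Nrg4 went against Inhbe (-0.57), Inhbc (-0.49) and Inhbb (-0.46).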

How the data were processed

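RNA-seq of bulk liver was deposited by the authors as 4 tables of raw counts per gene, with summed exon lengths in base pairs. Reads were aligned with STAR 2.7.8a to GRCm39 and counted with featureCounts 2.0, per the submitters' processing notes. The counting strand and the annotation release are not given in the sources used here. Of 55416 genes 94.0% had a symbol, and rows without one held 0.764% of counts. Among 85 pairs of libraries within groups none were identical. Nothing in the labels states how replicates were separated beyond their letters, so p-values measure the spread between these livers.

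Counts were filtered (filterByExpr, minimum count 10, minimum total 15), TMM-normalised and tested with edgeR 4.0.16 (quasi-likelihood, robust) in R 4.3.3, with Benjamini-Hochberg adjustment over all genes tested and a threshold of 0.05. Knockout effects were fitted within each table, and the mean effect, feeding and diet against chow in a joint fit of the 8 Plvap groups. Displayed CPM use 1 TMM scale for 46 libraries. The targeted genes were compared by exact permutation of log2(CPM + 0.5). DESeq2 1.42.0, limma 3.58.1 (voom with quality weights), no filter, a replicate block, fewer groups and leaving out each library were alternatives. The fits were tested on simulated data.

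In the refed livers, knockouts and controls of the same letter deviated together from their group means (r from 0.247 to 0.299 for the 4 letters). No label pairs them, so the replicate block there rests on the same data and not on a stated design. The text names the 9 members, the targeted genes, up to 4 called genes of each pathway list with the smallest p and at least 1 CPM, and the 3 genes most like each member. The members and lists were chosen with earlier results of these data known. For the fasting time the per-sample labels were used. The labels' protocols differ from them for the refed and Cav1 experiments.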

Additional observations from a re-analysis of the deposited data

Results flagged for a closer look

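In 10 of the 90 sets of 1 gene in 1 group, a single liver stood apart from the others by Dixon's criterion. For normally distributed values chance gives about 1 in 20, and the criterion was applied to CPM on the linear scale. The part of the scale in this number was not tested. For Fst these were fasted chow control D at 22.6 CPM, refed knockout D at 7.71, western control A at 13.4 and high-fat control A at 4.74, each the highest of its group. Gdf15 was highest in fasted chow control F at 11.6 CPM, and Nrg4 in western knockout B at 11.4. Inhbe reached 187 CPM in western control E, and Inhbb 10.7 CPM in high-fat knockout E. Inhbc was at 68.7 CPM in wild type B of the Cav1 experiment. Inhba was lowest among the Cav1 knockouts in replicate C, at 15 CPM, and this liver still lay above all wild types.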

How the results depend on the processing

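Among member results with an unadjusted p under 0.05 in the main edgeR fit, none reversed its direction under any alternative run. Other member results did change sign in fits on 1 genotype. Inhbb with refeeding was 0.24 in the main fit and -0.77 in knockouts alone. For western diet against chow, Fgf21 went from 0.41 to -0.447 and Gdf15 from 0.389 to -0.505 in knockouts alone. Counts of genes called in the stellate knockout on fasted chow were 690 with DESeq2, 861 without the filter, 490 with limma-voom and 713 with the replicate block, in refed livers 60, 131, 10 and 30, on western diet 20, 10, 15 and 1, and on high-fat diet 255, 99 and 110 for the first 3. The 2 western groups alone gave 1. Cav1 gave 933 with DESeq2 and 1279 without the filter. Western against chow gave 2078 with limma-voom, 258 in controls alone and 323 in knockouts alone, high-fat against chow 1204 and 2199 in controls and knockouts, and western against high-fat 283, 1143 and, with the replicate block, 1151. For differences of effect, western minus high-fat gave 56 (DESeq2) and 10 (no filter), refed minus fasted 6, 4 and 1 (limma-voom), western minus chow 2 (DESeq2), and high-fat minus chow 12 (DESeq2) and 20 (limma-voom). The causes were not tested.

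Members called on fasted chow were 2 with DESeq2, 2 without the filter and 2 with the replicate block. The block gave 1 in refed livers and 0 on high-fat diet, where Nrg4 had an adjusted p of 0.0797. On fasted chow the block gave Gdf15 1.81 (adjusted p = 2.74e-05) and Nrg4 1.05 (adjusted p = 0.0227), though letters there share only a number, as in the western, high-fat and Cav1 experiments. The mean effect had 2 with DESeq2, western against chow 1 with limma-voom, high-fat against chow 2 in controls and 2 in knockouts, and western against high-fat 2 with limma-voom and 0 in controls.

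Leaving out each library in turn gave 90 to 550 genes for fasted chow, 0 to 4 for refed, 1 to 5 for western, 4 to 126 for high-fat, 330 to 671 for Cav1 and 655 to 984 for the mean effect. It gave 8335 to 8758 for refeeding, 951 to 1455 for western and 3150 to 4035 for high-fat against chow, and 1156 to 2434 for western against high-fat. Differences of effect gave 0 to 1 (western minus high-fat and western minus chow), 0 to 17 (refed minus fasted) and 0 to 12 (high-fat minus chow). Members called ranged from 0 to 1 on fasted chow and high-fat diet, 1 to 2 for Cav1, the mean effect and western against high-fat, and 3 to 4 for high-fat against chow, with 4 throughout for refeeding and 0 in the other comparisons. Fits without mitochondrial genes and without genes at 0 throughout a table, both left out together, were chosen after seeing the data. There Inhbe on high-fat diet had an adjusted p of 0.0507. Counting limits Fgf21 in refed livers, where the lowest value is 2 counts.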
